A study of Mus musculus with 12 samples.

Results

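The genes described here are the 45 of 27457 listed gene symbols that begin with Psma, Psmb, Psmc, Psmd or Psme followed by a digit, which is how mouse proteasome subunits and activators are named. The rule reads the symbol and no measured value. They hold 3 inducible catalytic subunits (Psmb8, Psmb9 and Psmb10) and the 2 subunits of the activator PA28αβ (Psme1 and Psme2), called the 5 inducible members from here on. Another 34 are called constitutive. They hold the 3 catalytic subunits Psmb5, Psmb6 and Psmb7, 7 subunits of the alpha ring and 4 structural subunits of the beta ring. The others are the 6 ATPases of the 19S cap and the 14 genes Psmd1 to Psmd14, grouped with the cap by name. Not all of these 14 code for subunits of the finished cap. The remaining members are the 3 other activator genes Psme3, Psme4 and Psme2b, the testis subunit Psma8, the thymus subunit Psmb11, and Psmc3ip, a meiotic recombination factor that matches by its letters only.

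The proteasome is a barrel of alpha and beta rings that cuts ubiquitin-marked proteins, which the 19S cap unfolds and feeds in. Interferon gamma (IFN-γ) makes cells replace the catalytic subunits Psmb5, Psmb6 and Psmb7 with Psmb8 (LMP7), Psmb9 (LMP2) and Psmb10 (MECL-1), and the resulting immunoproteasome, with PA28αβ at its ends, yields peptides that fit MHC class I well. Macrophages and dendritic cells, which show such peptides to CD8 T cells, carry much immunoproteasome even at rest.

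Single-cell RNA sequencing with 5′ chemistry was made from MC38 tumors, a mouse colon carcinoma line grown under the skin of female mice aged 8 to 12 weeks. At 75 to 110 mm3 each animal received 1 intraperitoneal dose of 200 µg, either of antibody 29F.1A12 to PD-1 (aPD1) or of the isotype control 2A3, and tumors were taken after 48 h and sorted to a mix of 90% CD45+ and 10% CD45- cells. Hosts were F1 animals of C57BL/6J and a Collaborative Cross strain, an inbred strain bred from several founders, or C57BL/6J (B6) itself, and the comparison asks how hosts in which aPD1 slows the growth of MC38 tumors more, relative to isotype, differ from hosts in which it slows it less. Responder strains were the F1 of CC001/UncJ, CC002/UncJ and CC075/UncJ (10 isotype and 10 aPD1 tumors), and non-responder strains the F1 of CC036/UncJ, CC079/TauUncJ and CC080/TauUncJ (9 and 9). This class comes from the study's text and from tumor growth in other animals, not from the sample labels. Another 10 tumors, 6 of B6 and 4 of the CC007/UncJ F1, have no class. All tumors came from a single cell line, so the tumor genome was shared and the host genome differed. With 3 strains a class, the class cannot be told apart from those strains.

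The 48 tumors gave 93126 cells and 88816 to 17713491 unique molecular identifiers (UMIs, each marking 1 captured transcript) per tumor. Cells per tumor ranged from 53 to 3082, and 3 tumors had fewer than 500: a CC007 aPD1 tumor, a B6 isotype tumor and a CC002 isotype tumor. Barcode sequences found in more than 1 library belonged to 10176 cells (10.9%). The 27 clusters are the authors' and carry numbers. Names of cell types are given here from marker genes and mean cells like that type, and the clusters named macrophages (68059 cells) summed to 8722 to 30604 CPM for 9 macrophage markers in tumors with a class, while the 9 T/NK markers summed to 10.7 CPM in macrophages and to 6140 CPM in T/NK cells. CPM, the usual counts-per-million unit, scales the UMI count of a gene by all UMIs of the cells summed; it counts 5′ ends and is not divided by gene length. Fewer transcripts per cell and more transcripts of other genes cannot be told apart on this scale.

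Where these genes lie is part of what groups them. Psmb8 (chr17:34197721-34201454, plus strand) and Psmb9 (chr17:34181987-34187764, minus strand) stand in the MHC class II region beside Tap1, a chain of the peptide transporter, in GRCm38. By RefSeq, whose start of Psmb9 lies inside the GENCODE interval given here, the start sites of Psmb9 and Tap1 face away from each other with 225 bases between them, and their promoter windows of 300 bases share 275 bases. Psmb10 lies at chr8:105935735-105938444 (minus), Psme1 at chr14:55578123-55581529 (plus) and Psme2 at chr14:55587441-55591113 (minus). Among the constitutive catalytic genes, Psmb5 lies at chr14:54614119-54618022 (minus), Psmb6 at chr11:70525367-70527858 (plus) and Psmb7 at chr2:38588036-38644087 (minus). Psme2b (chr11:48945354-48946190, minus) was 96.2% identical to Psme2 over 840 aligned transcript bases, so its counts are uncertain.

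Promoter windows from RefSeq (GRCm38.p6, 250 bases before the start site to 50 after it) matched 38 of the 45 members. Each was searched on both strands for the IRF element (GAAA, NN, GAAA in a row), the antioxidant response element TGACNNNGC and the CCAAT box. These stood in 3.44%, 12.4% and 37.4% of all 32851 windows, and in at least 1 window of 3.99%, 13.99% and 41.1% of 27025 genes. The IRF letters were in Psme1, Psmb3, Psmd4 and Psmd9, and not in the windows of Psmb8, Psmb9, Psmb10 and Psme2, while the antioxidant letters were in Psmb5, Psmb6, Psmc6, Psmd9, Psmd12 and Psme4. CCAAT was in 15 of the 38. The sites of PA28α and of a pair of constitutive catalytic genes are shown as examples picked with the expression results known; capitals mark the motif, and a match of letters is a description, not a binding site. Psme1 holds the IRF letters on the reverse strand at bases 9 to 18 from its start (chr14:55578493-55578522, plus), Psmb5 the antioxidant letters at -47 to -39 (chr14:54618023-54618052, minus) and Psmb6 at -9 to -1 (chr11:70525338-70525367, plus).
Psme1: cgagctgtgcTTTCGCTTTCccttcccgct
Psmb5: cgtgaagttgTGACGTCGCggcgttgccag
Psmb6: ctaaagagagTGACGGAGCgctttacgacg

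Across cell types, Psmb8, Psmb9, Psme1 and Psme2 were highest in dendritic clusters and Psmb10 in a macrophage cluster, while the constitutive members were highest in several kinds of cluster, cDC1 among them. Clusters were made from these same transcripts, so cluster levels are given without a test. Psmb8 reached 1040.1 CPM in cluster 6 (cDC1, led by Xcr1 and Clec9a) and 883 CPM in cluster 11 (migratory dendritic cells, led by Ccr7 and Ccl22), and its lowest level was 184 CPM in macrophage cluster 19. Psmb9 had the same top and bottom, with 715 CPM in cluster 6, 559 CPM in cluster 11 and 107 CPM in cluster 19. Both PA28αβ genes were highest in migratory dendritic cells. Psme1 stood at 1412 CPM in cluster 11 against 1149.6 CPM in cluster 6 and 235 CPM in cluster 19. Psme2 stood further apart, at 1801 CPM in cluster 11 against 711 CPM in cluster 6 and 193 CPM in cluster 19. Over the 39 tumors with at least 20 cells of cluster 11, Psme2 had a lowest level of 1111 CPM, a median of 1805 CPM and a highest of 2429 CPM, so every tumor was above the level of the next cluster. Psmb10 did not follow the other 4. It was highest in cluster 21 (336 CPM), macrophages led by the interferon-stimulated genes Ifit3 and Rsad2, then in the unnamed cluster 20 (280.1 CPM). It was lowest in cluster 13 (74.6 CPM), or in cluster 19 by the mean over cells of the share of UMIs. Of the tumors with a class, 3 responder isotype and 3 responder aPD1 tumors had at least 20 cells of cluster 13. Cluster 13, the T/NK cluster led by Il2 and Ifng, had 703 CPM of Psme2 and 538 CPM of Psme1 beside 278 CPM of Psmb8 and 138 CPM of Psmb9, so PA28αβ and the inducible catalytic subunits parted there.

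Constitutive members were mostly highest in macrophage cluster 15, led by the osteoclast genes Ctsk and Acp5, in cDC1 or in cluster 20, and lowest in the granulocytic cluster 16. Psmb5 was 338 CPM in cluster 15 and 68.9 CPM in cluster 19. Psmb6 was 273 CPM in cluster 15 and 80.02 CPM in cluster 16, and Psmb7 139.6 CPM and 58.7 CPM in the same clusters. Psmd7, a 19S lid subunit, was 197 CPM in cluster 20, 132 CPM in cluster 15 and 17.8 CPM in cluster 16. Some members left this pattern. Psmd8, another lid subunit, was 306 CPM in macrophage cluster 27, led by Gpnmb and Hmox1, against 153 CPM in the next cluster. Psme3, the nuclear activator PA28γ, was 136 CPM in cluster 13 against 81.2 CPM in the next. Psmd14, the deubiquitinase of the lid (217 CPM), and Psme4, the activator PA200 (257 CPM), were highest in cluster 19, where Psmb8, Psmb9, Psme1 and Psme2 were lowest; that cluster is led by noncoding transcripts such as Mir99ahg. Cells of cluster 19 had a median of 1225 UMIs and those of cluster 16 of 815, against 3333.5 over all cells, and the part of depth in these levels was not tested. Psmb11 had 21 UMIs and Psma8 959 UMIs in all cells.

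**Figure D1:**
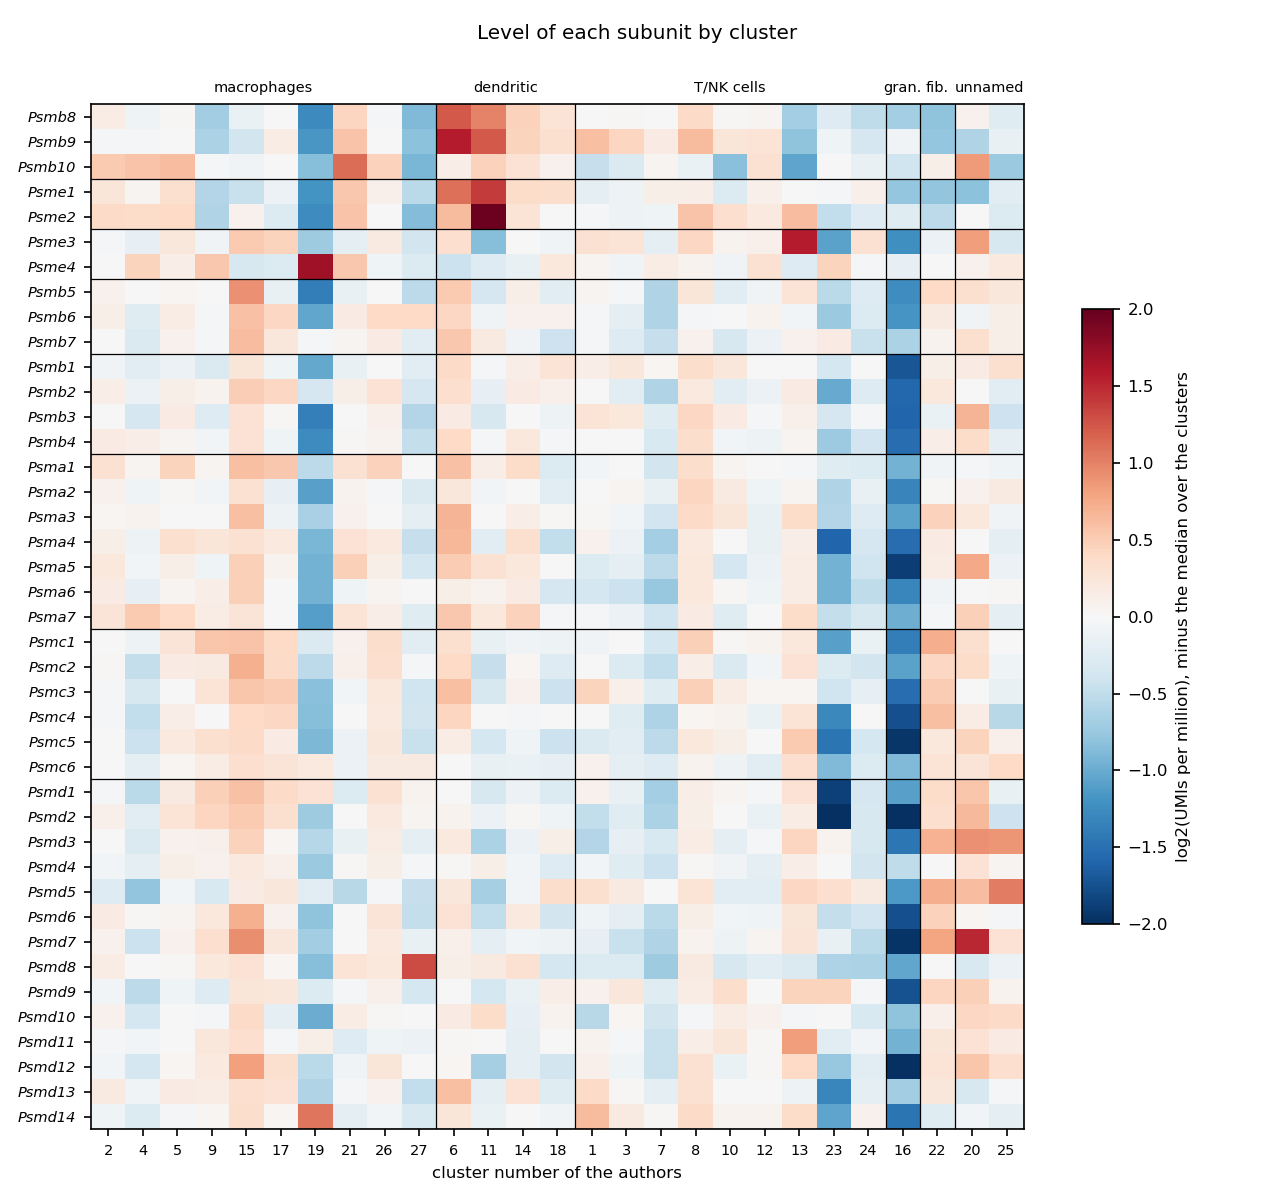
Log2 CPM of the proteasome members other than Psme2b, Psma8, Psmb11 and Psmc3ip (rows, grouped by role) in the 27 clusters (columns, grouped by cell population), minus the median of that member over clusters; red is above and blue below the median, and colors stop at the ends of the scale. Psmb8, Psmb9, Psme1 and Psme2 are reddest in clusters 6 and 11, and most constitutive members are bluest in cluster 16.

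The balance of inducible to constitutive catalytic subunits was taken as the log2 ratio of their UMI counts per tumor, with 0.5 added to each count. Since capture can differ between genes, the level of a ratio means little by itself and cells are compared with each other. Psmb8 over Psmb5, the pair with chymotrypsin-like activity, had a median of 1.95 in dendritic cells (47 tumors), 1.39 in T/NK cells (47 tumors), 1.32 in macrophages (48 tumors), 1.03 in cluster 20 (41 tumors) and 0.06 in fibroblasts (9 tumors). Psmb9 over Psmb6 went from 1.16 in dendritic cells and 0.83 in T/NK cells to 0.23 in macrophages, -0.05 in cluster 20 and -0.58 in fibroblasts. Psmb10 over Psmb7 had another order, with 1.19 in macrophages, 1.07 in cluster 20, 0.96 in dendritic cells, 0.81 in fibroblasts and 0.77 in T/NK cells. Fibroblasts had the lowest median of the first 2 ratios but not of the third. Their range over tumors for Psmb9 over Psmb6 (-2.89 to 0.43) lay below that of dendritic cells (0.55 to 1.93). Granulocytic cells (7 tumors, cluster 16) had medians of 1.38, 1.93 and 1.59 for the 3 ratios, the highest for Psmb9 over Psmb6 and Psmb10 over Psmb7, but spread over tumors from 0 to 4.25, from -0.24 to 3.91 and from -1.58 to 3.17. By cluster, Psmb8 over Psmb5 ran from 0.11 in cluster 22 (fibroblasts) to 2.63 in cluster 11, and Psmb9 over Psmb6 from -0.81 in cluster 27 to 1.69 in cluster 11.

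**Figure D2:**
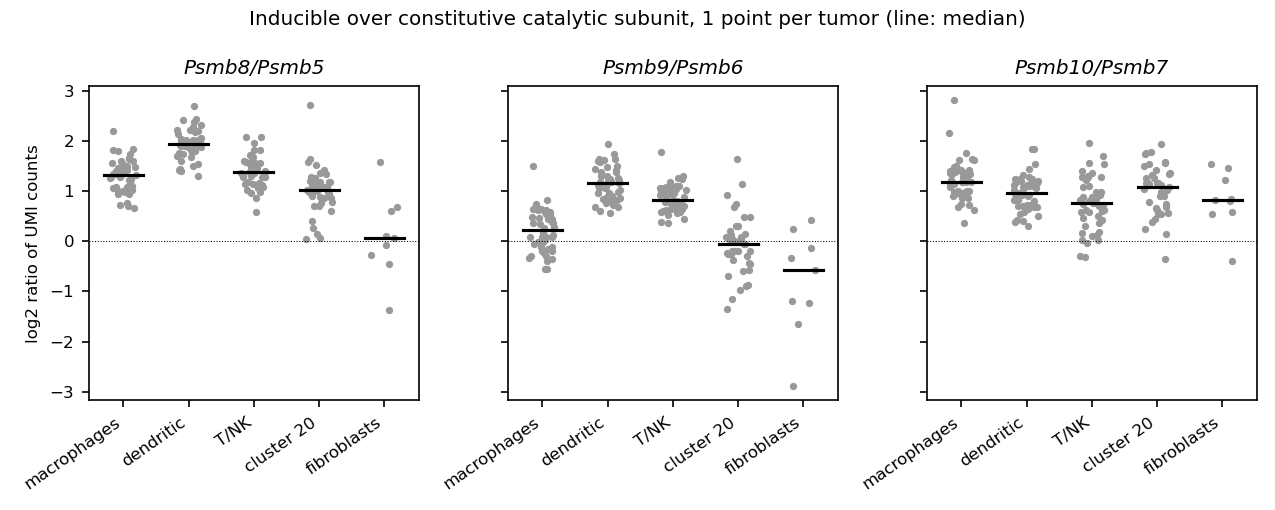
Log2 ratio of Psmb8 to Psmb5, Psmb9 to Psmb6 and Psmb10 to Psmb7 UMI counts (vertical axes), with 1 point for each tumor with at least 20 cells of the population and a line at the median, in macrophages, T/NK cells, dendritic cells, cluster 20 and fibroblasts. Of the populations drawn, dendritic cells have the highest median for Psmb8 to Psmb5 (1.95) and Psmb9 to Psmb6 (1.16), and macrophages for Psmb10 to Psmb7 (1.19).

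In macrophages, Psmb8, Psmb9 and Psme1 were higher in responder than in non-responder strains, and the constitutive catalytic subunits were not called. Counts were summed per tumor and tested with edgeR's quasi-likelihood test over 11873 genes, with Benjamini-Hochberg adjusted p under 0.05 as a call; Psmb11 was too low to test. In isotype tumors Psmb8 was 275, 351 and 497 CPM (lowest, median and highest) in 9 non-responder tumors and 339, 459 and 601 CPM in 10 responder tumors. In aPD1 tumors it was 271, 336 and 464 CPM in non-responder and 402, 504 and 684 CPM in responder tumors. The classes overlapped under both treatments, and the responder tumors that exceeded all non-responder tumors numbered 2 of 10 under isotype and 7 of 10 under aPD1.

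Psmb9 was 156, 186 and 299 CPM in non-responder and 152, 249.98 and 319.8 CPM in responder isotype tumors. In aPD1 tumors it was 155, 182 and 234 CPM in non-responder and 244, 294 and 379 CPM in responder tumors. Every responder tumor treated with aPD1 was therefore above all 9 non-responder tumors, while under isotype 1 of 10 was. Psme1, the alpha subunit of PA28, was 420, 508 and 675 CPM in non-responder and 399.7, 621 and 729 CPM in responder isotype tumors. With aPD1 it was 453, 501 and 585 CPM in non-responder and 597, 665 and 821 CPM in responder tumors, again with no overlap. Of all genes tested, 0.278% had responder aPD1 tumors wholly above non-responder ones and 0.0253% had responder isotype tumors wholly above; 2 of the 44 members tested were in the first set and 0 in the second.

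Psmb10 was 142, 184 and 265 CPM in non-responder and 148, 221 and 266 CPM in responder isotype tumors. Under aPD1 it was 145, 182 and 218 CPM in non-responder and 189, 227 and 295 CPM in responder tumors, with 6 of 10 responder tumors above all non-responder tumors. Psme2, the beta partner of Psme1, was 334, 479 and 714 CPM in non-responder and 296, 495 and 674 CPM in responder isotype tumors. Under aPD1 it was 392, 487 and 575 CPM in non-responder and 435, 529.7 and 670.2 CPM in responder tumors. Its classes overlapped under both treatments.

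The constitutive catalytic subunits had like levels in all groups. Under aPD1, Psmb5 was 164, 182 and 203 CPM in non-responder and 148, 168 and 204 CPM in responder tumors. Psmb6 was 169.9, 219 and 255 CPM in non-responder and 176, 203 and 263 CPM in responder tumors. Psmb7 was 89.5, 97.2 and 109 CPM in non-responder and 83.3, 91.3 and 101 CPM in responder tumors. All 3 overlapped, and their medians under aPD1 were lower in responder tumors. In isotype tumors the responder medians were lower for Psmb5 and Psmb7 and higher for Psmb6 (213 against 207 CPM). The balance of catalytic subunits followed the inducible ones. In aPD1 tumors the log2 ratio of Psmb8 to Psmb5 was 0.69, 1.00 and 1.27 in non-responder and 1.10, 1.60 and 2.19 in responder tumors, and that of Psmb9 to Psmb6 was -0.55, -0.12 and 0.09 in non-responder and -0.11, 0.60 and 0.81 in responder tumors. Both overlapped, as did Psmb10 to Psmb7 (0.67 to 1.19 against 1.00 to 1.75). In the hosts with no class, B6 and the CC007 F1, Psmb9 was 206, 242 and 297 CPM in 5 isotype tumors. In their 5 aPD1 tumors it was 244, 282 and 322 CPM, all above the 9 non-responder aPD1 tumors. The highest, 322 CPM, was from the CC007 tumor of pool 6, which had 53 cells in all. Psme1 in these aPD1 tumors (599 to 778 CPM) was also wholly above, while Psmb8 (236 to 636 CPM), Psmb10 and Psme2 overlapped. No share over all genes is given for this comparison.

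**Figure D3:**
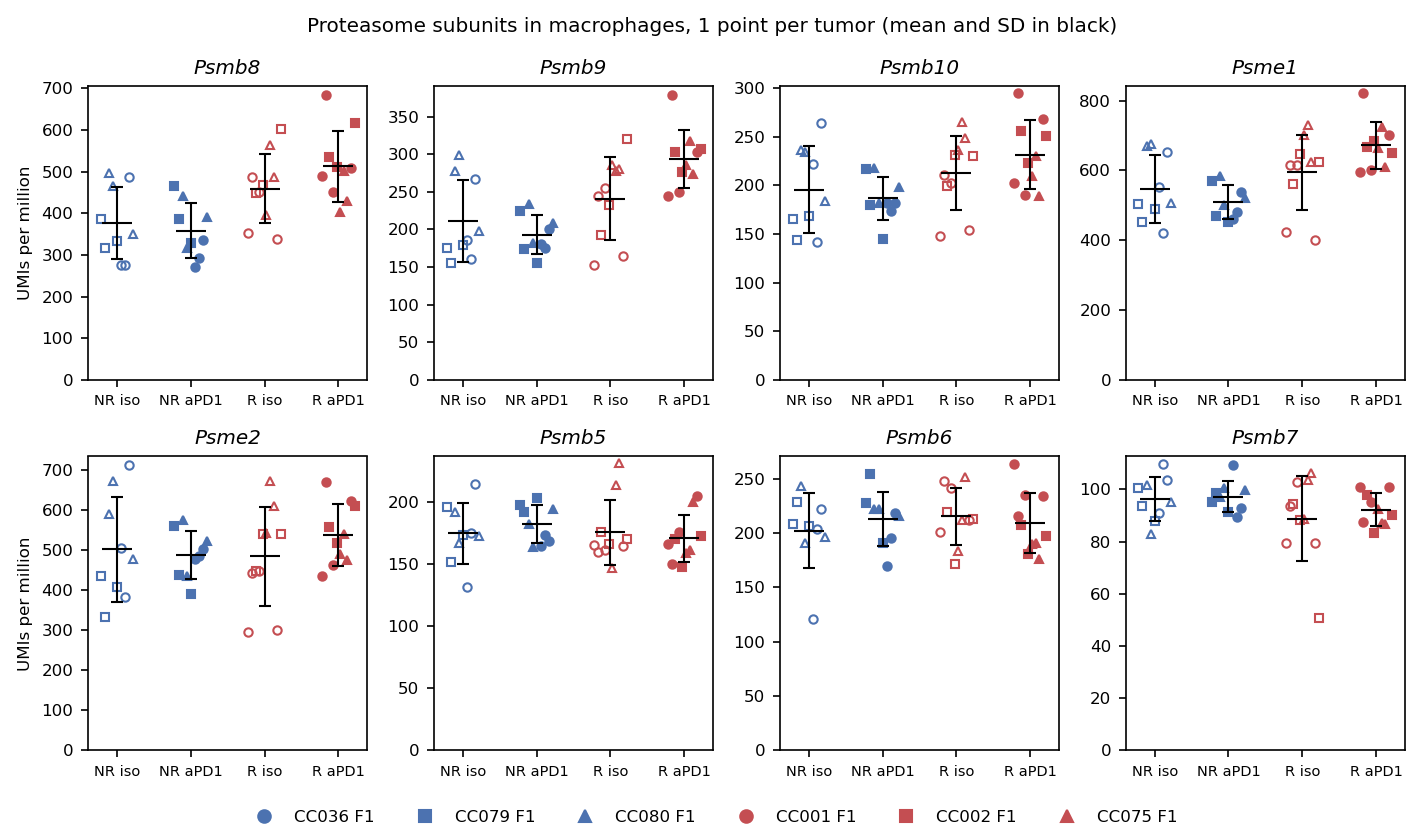
CPM of the 5 inducible members and of Psmb5, Psmb6 and Psmb7 in macrophages, with 1 point per tumor in the 4 groups of class and treatment (marker color and shape give the host strain, open markers isotype and filled markers aPD1) and the mean with its SD. Responder aPD1 tumors lie wholly above non-responder aPD1 tumors for Psmb9 (244 to 379 against 155 to 234 CPM) and Psme1 (597 to 821 against 453 to 585 CPM).

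Over both treatments 3 members were higher in responder strains, where 4.1% of all genes tested were, and 2 were lower, where 2.46% were (6.56% in either direction). By edgeR's quasi-likelihood test, Psmb8 differed by a log2 fold change of 0.45 ± 0.096 (SE, adjusted p = 0.0025), Psmb9 by 0.44 ± 0.097 (adjusted p = 0.0033) and Psme1 by 0.31 ± 0.074 (adjusted p = 0.0078). Psmb10 (0.26 ± 0.088, adjusted p = 0.064) and Psme2 (0.09 ± 0.10, adjusted p = 0.69) did not pass. The lower members were Psme3 (-0.17 ± 0.050, adjusted p = 0.028) and Psmd1, the large 19S base subunit (-0.13 ± 0.039, adjusted p = 0.029). With the pool as a replicate block, Psmb8, Psmb9 and Psme1 kept their calls (5.28% of genes were higher), and Psme3 (-0.16, adjusted p = 0.0503) and Psmd1 (-0.10, adjusted p = 0.089) lost theirs. The 34 constitutive members had a median of 0.01 and a range of -0.13 to 0.12, and Psmd1 was the 1 called. Psmb5 differed by 0.00 (95% interval -0.12 to 0.13), Psmb6 by 0.08 (-0.06 to 0.22) and Psmb7 by -0.04 (-0.14 to 0.07).

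Within aPD1 tumors 4 members were higher (4.35% of all genes were) and 1 was lower (2.1% of all genes were). By the same test Psmb9 differed by 0.69 ± 0.14 (a fold of 1.61, adjusted p = 0.0017), Psmb8 by 0.59 ± 0.14 (1.51-fold, adjusted p = 0.0060), Psme1 by 0.48 ± 0.11 (1.39-fold, adjusted p = 0.0043) and Psmb10 by 0.39 ± 0.12 (1.31-fold, adjusted p = 0.049). Psme2 stood at 0.22 ± 0.14 (adjusted p = 0.39) and Psme2b at 0.71 ± 0.23 (adjusted p = 0.055). Psme2b passed with the pool as a block (0.85, adjusted p = 0.0047, with 7.14% of genes higher), with DESeq2 (0.70, adjusted p = 0.040) and with the set of pools described below as a term (0.68, adjusted p = 0.027), while Psmb10 did not pass with the block (0.38, adjusted p = 0.056), with library-size scaling (0.31, adjusted p = 0.085), without a filter (0.37, adjusted p = 0.11), without any 1 of the 6 strains (adjusted p = 0.068 to 0.14) or without any 1 pool but pool 1 (adjusted p = 0.062 to 0.18). Psme3 was the lower one (-0.23 ± 0.070, adjusted p = 0.034). None of the 34 constitutive members was called, and their values ran from -0.21 to 0.19 with a median of -0.02. In isotype tumors 0 of 44 members were called, where 0.126% of all genes were higher and 0.152% lower (796 genes had an unadjusted p under 0.05, and DESeq2 called 0 members too); Psmb8 stood at 0.30 ± 0.14 (adjusted p = 0.66, unadjusted 0.033), Psmb9 at 0.19 ± 0.14 (adjusted p = 0.93) and Psme1 at 0.13 ± 0.10 (adjusted p = 0.97). That Psmb9 and Psme1 were called under aPD1 and not under isotype does not by itself show that treatment changed the class difference, which the interaction below addresses.

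Within the constitutive members, the groups leaned to either side, and Psmd1 alone was called. All 7 subunits of the alpha ring were above 0 over both treatments (0.03 to 0.12, median 0.08) and so were the 4 structural beta subunits (0.02 to 0.06). All 6 ATPases of the 19S cap were below 0 (-0.09 to 0.00, median -0.04), and of the 14 Psmd genes 5 were above 0. Scaling by library size alone shifts the median of all genes from 0.00 to -0.05, and the part of scaling in these leanings was not tested.

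**Figure D4:**
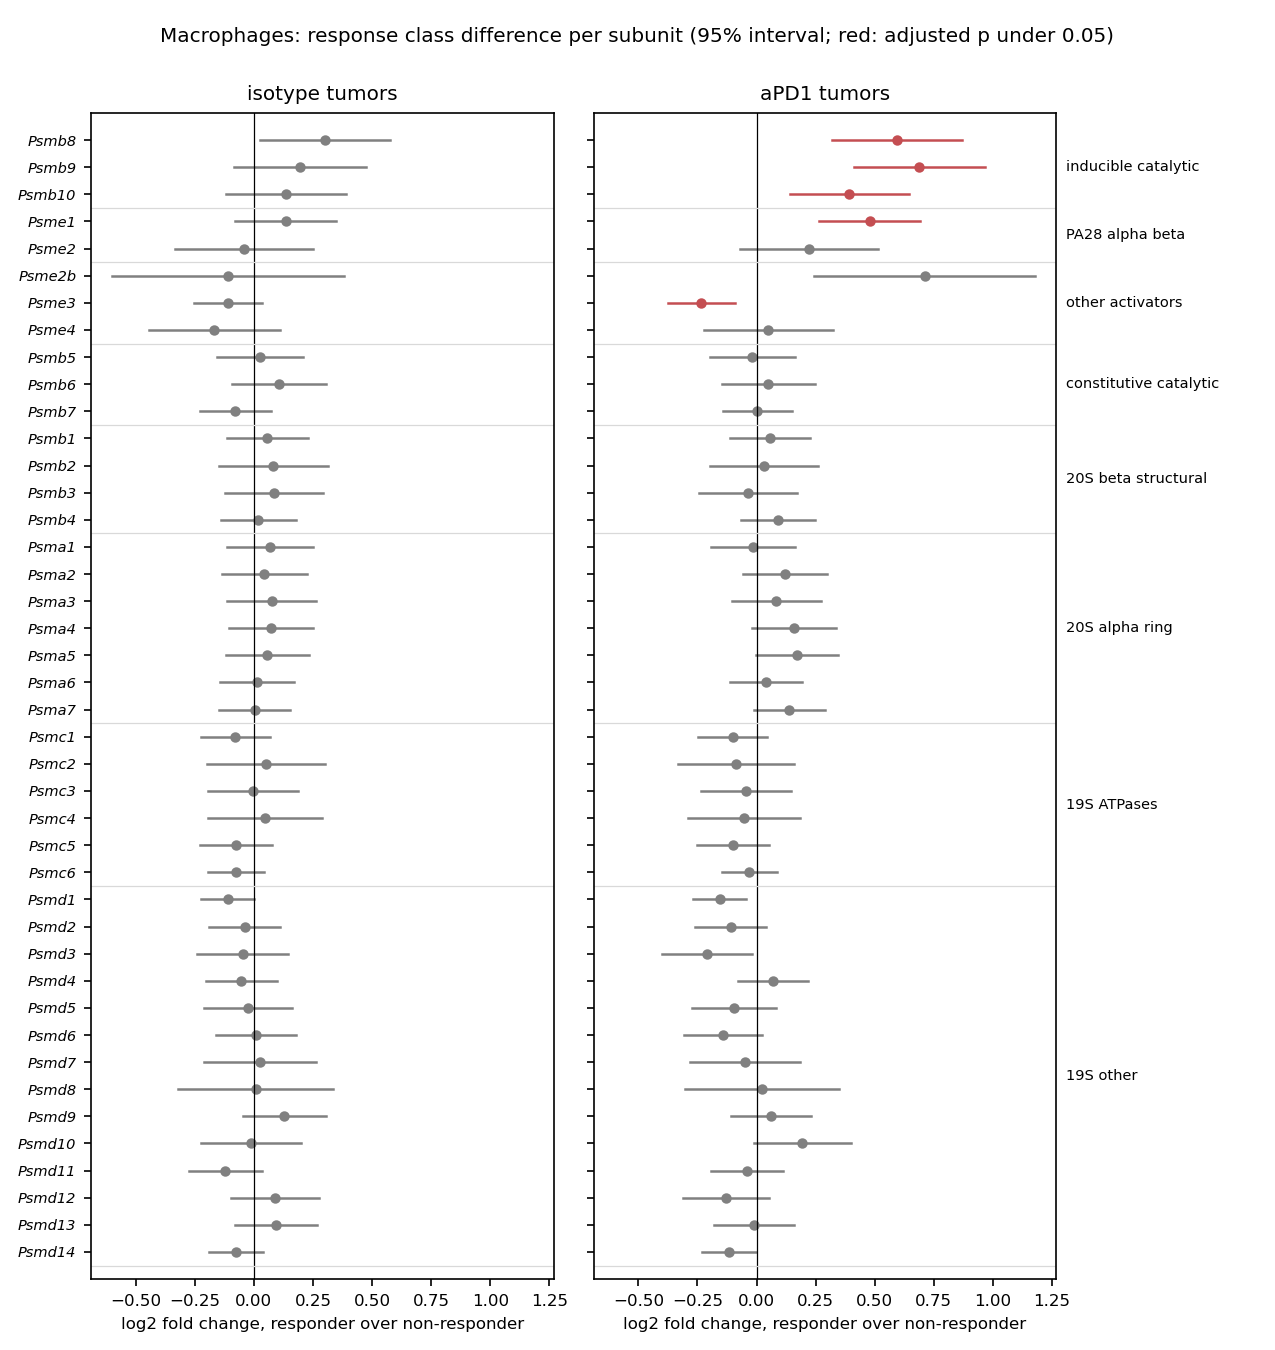
Log2 fold change of responder against non-responder strains in macrophages (horizontal axis) with its 95% interval for each tested member (vertical axis, grouped by role), in isotype tumors on the left and aPD1 tumors on the right; red marks adjusted p under 0.05. The red members are Psmb8 (0.59), Psmb9 (0.69), Psmb10 (0.39), Psme1 (0.48) and Psme3 (-0.23) in aPD1 tumors, and none in isotype tumors.

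The labels name no batch. The numbers in the library identifiers have their largest gap between pools 6 and 7, and pools on either side were compared as sets that may or may not be batches. Each class is in both, but CC036 and CC075 are only in the later set and CC079 only in the earlier. Set and strain therefore cannot be fully told apart. In pools 1 to 5, Psmb8 differed over both treatments by 0.34 (adjusted p = 0.13), Psmb9 by 0.33 (adjusted p = 0.29) and Psme1 by 0.25 (adjusted p = 0.26), by edgeR's quasi-likelihood test. In pools 8 to 12, Psmb8 differed by 0.58 (adjusted p = 0.039), Psmb9 by 0.56 (adjusted p = 0.015) and Psme1 by 0.36 (adjusted p = 0.076). Under aPD1, Psmb9 stood at 0.65 (adjusted p = 0.13) in pools 1 to 5 and at 0.72 (adjusted p = 0.052) in pools 8 to 12. Directions held in both sets, with fewer tumors and partly different strains in each fit.

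Treating the strain as the unit gives less certainty. Mean CPM of the 3 responder strains under aPD1 lay wholly above that of the 3 non-responder strains for Psmb9 (292 to 296 against 184 to 208), Psme1 (666 to 680.2 against 494 to 536), Psmb8 (444 to 554 against 300.03 to 393) and Psmb10 (209.9 to 243 against 179 to 199.8). Of all 11873 genes, 4.94% had responder strain means wholly above and 12.7% wholly below; of the members, Psme2b was also above, and Psmd1, Psmd2, Psmd6, Psmd14 and Psme3 were below. An exact two-sided permutation test over these 6 strains gave p = 0.1 for each of the 4, which is the smallest it can give. The strain means of Psme2 (503 to 563 against 464 to 511 CPM) and of Psmb5, Psmb6 and Psmb7 overlapped. Under isotype the strain means of all 8 genes overlapped. When counts were summed per strain and treatment before the fit, no member was called over both treatments (0.223% of 13873 genes were higher and 0.0793% lower) or under aPD1 (0.0865% and 0.036%); Psmb9 stood at 0.66 under aPD1 (adjusted p = 0.21, edgeR's quasi-likelihood test).

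Values of other cells that moved with the class are given in the order non-responder isotype, non-responder aPD1, responder isotype and responder aPD1. T/NK cells made up a median of 7.39%, 5.49%, 11.8% and 13.4% of the cells of a tumor, and the tumor's Ifng level, log2(CPM + 1), had medians of 4.09, 3.93, 4.85 and 6.54. In the macrophage sums the 9 T/NK markers came to 5.44 to 39.0, 2.79 to 10.9, 4.95 to 20.7 and 6.00 to 66.2 CPM, against 6140 CPM in T/NK cells. The 5 cDC1 markers came to 138 to 368, 147 to 263, 178 to 376 and 193 to 407 CPM, of which Irf8 and Cadm1 made up most, while the defining markers Xcr1 (0.767 CPM over all macrophages) and Clec9a (6.54 CPM) were low. The 8 MC38 markers came to 14.2 to 67.2, 17.3 to 44.1, 7.97 to 36.8 and 4.35 to 29.4 CPM, mostly Cdh1, and no marker of these lists was at 0. The interferon-stimulated cluster 21, where Psmb10 is highest, was a median of 6.44%, 6.32%, 5.04% and 4.65% of macrophages, so its median share was not larger in responder tumors. In the same order cluster 26 was a median of 20.1%, 21.5%, 27.9% and 24.8% of macrophages, cluster 2 of 22.03%, 28.1%, 20.7% and 33.0%, and cluster 5 of 18.995%, 19.02%, 18.3% and 17.1%, and the ranges of the 4 groups overlapped for each. The part of these values in the differences was not tested.

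The macrophage difference was present inside single clusters. In cluster 26 (led by Cxcl13 and C1qc) Psmb8 differed by 0.53, Psmb9 by 0.52, Psme1 by 0.36 and Psmb10 by 0.31, all called, where 4.85% of 9882 genes were higher. In cluster 2 (led by Cxcl2 and Il1b) Psmb8 (0.42), Psmb9 (0.41) and Psme1 (0.28) were called, where 2.29% of genes were higher. In cluster 5 (led by immunoglobulin and hemoglobin transcripts beside Ccr2), Psmb9 (0.41) and Psmb8 (0.38) were higher, where 2.95% of genes were, and Psmd14 was lower (-0.27), where 1.41% of genes were. Psmb8 was the 1 called member in cluster 17 (0.44, with 0.93% of genes higher), which is led by histone genes, and in cluster 27 (0.49, with 0.447% higher), and Psme1 the 1 in cluster 21 (0.26, with 1.35% higher). In macrophage clusters 4 and 19 no member was called, where 0.473% and 0.35% of genes were in either direction. With clusters 2, 5 and 26 left out, the remaining macrophages had no called member over both treatments, where 0.914% of genes were higher and 0.602% lower; Psmb9 stood at 0.32 (adjusted p = 0.16) and Psmb8 at 0.29 (adjusted p = 0.17), by edgeR's quasi-likelihood test.

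Treatment itself gave no call. With aPD1 against isotype, 0 of 44 members passed in either class by edgeR's quasi-likelihood test, and 0 of 11873 genes did, while 821 genes in responder and 91 in non-responder strains had an unadjusted p under 0.05. That fit did not pair the tumors of a pool. With the pool as a block, 0 members passed for treatment in either class or for the interaction, with no share over all genes given. DESeq2 called 0 genes in responder and 1 gene in non-responder strains, no member in either. In responder strains Psmb9 stood at 0.35 (95% interval 0.08 to 0.62, adjusted p = 0.66), Psme1 at 0.23 (0.02 to 0.44, adjusted p = 0.71) and Psmb8 at 0.22 (-0.05 to 0.48, adjusted p = 0.80), by edgeR's quasi-likelihood test. In non-responder strains Psmb9 stood at -0.14 (-0.43 to 0.14), Psme1 at -0.11 (-0.33 to 0.10) and Psmb8 at -0.08 (-0.36 to 0.20). Each pool held an isotype and an aPD1 tumor of the same strain, and Psmb9 and Psmb8 were each higher with aPD1 in 7 of 10 responder pairs and in 4 of 9 non-responder pairs. The interaction, the test of whether treatment moved the classes apart, called 0 members and 0 of 11873 genes (680 at an unadjusted p under 0.05, and 1 gene, not a member, by DESeq2); Psmb9 stood at 0.49 (0.10 to 0.89, adjusted p = 0.87) and Psme1 at 0.35 (0.04 to 0.65, adjusted p = 0.87). Each hashtag antibody marked tumors of 1 treatment, so hashtag and treatment cannot be told apart.

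By host strain, 14 of 44 members differed among the 8 hosts in macrophages by the F test of the edgeR fit, against 51.7% of all 12510 genes, so the share of members was below the background. Over both treatments Psmb9 had strain means of 177 CPM in CC079, 195 in CC036, 233 in CC080, 249 in CC001, 254 in B6, 272 in CC002, 287 in CC075 and 288 in CC007. The 2 lowest, CC079 (SD 25.4, n = 6) and CC036 (SD 37.4, n = 6), lie within their spread of each other, as do all from CC080 upward with their neighbours. Psmb8 was lowest in CC036 (323 CPM, SD 83.8) and highest in CC002 (529.7 CPM, SD 68.8), and Psme1 lowest in CC079 (490.1 CPM, SD 44.2) and highest in B6 (686 CPM, SD 84.0). Adjusted p was 0.0014 for Psmb9, 0.0030 for Psme1, 0.0080 for Psmb8, 0.014 for Psmb10 and 0.088 for Psme2, and Psmb5, Psmb6 and Psmb7 were not called. The smallest belonged to Psma8, an alpha subunit of testis (1.9e-07), which had 959 UMIs in all cells. Its lowest and highest strain means, 1.26 CPM in CC079 and 4.44 CPM in CC080, were both of non-responder strains. Psmd8, Psme2b, Psme4, Psme3, Psmd11, Psmc3, Psmc3ip, Psmd12 and Psmd9 were the others called. With the pool as a block 5 were called, where 12.9% of genes were: Psma8, Psmb8, Psmb9, Psme1 and Psme2b.

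Ifng is transcribed mainly by T/NK cells, and the macrophage members were fitted on the tumor's Ifng level as a slope, in log2 units per unit of log2(CPM + 1), over all 48 tumors. All 5 inducible members had a slope above 0 by edgeR's quasi-likelihood test: Psmb9 0.10 ± 0.022 (adjusted p = 0.00039), Psmb10 0.08 ± 0.020 (adjusted p = 0.0020), Psmb8 0.07 ± 0.026 (adjusted p = 0.021), Psme1 0.07 ± 0.017 (adjusted p = 0.00068) and Psme2 0.07 ± 0.022 (adjusted p = 0.0061). Psme2b (0.225 ± 0.027, adjusted p = 2.0e-08) and Psme4 (0.08 ± 0.017, adjusted p = 0.00034) were the others, 7 of 44 higher in all, where 22.7% of 12100 genes were. Psmb5, Psmb6 and Psmb7 (-0.02, -0.03 and -0.01) and the 7 alpha ring subunits (-0.03 to 0.02) were not called. Below 0 were 15 members, where 20.9% of genes were. They held 5 of 6 ATPases, led by Psmc2 (-0.09), and 6 of 14 Psmd genes, led by Psmd8 (-0.09) and Psmd12 (-0.06). The others below 0 were Psmb2, Psmb3, Psme3 and Psmc3ip. With library-size scaling alone 24 members were below 0 (3019 of 12100 genes were) and 7 above (2303 genes were). With the pool as a block 6 members were above and 13 below, and Psme4 was not called (0.03, adjusted p = 0.082). No share over all genes is given for the fit with the block, whose counts over all genes stand in the closing sections.

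The calls of the inducible members were lost with group terms. With class, host and treatment groups as terms, none of the 5 inducible members was called: Psmb9 fell to 0.06 (adjusted p = 0.061), Psme2 stood at 0.06 (adjusted p = 0.058), Psmb10 at 0.04 (adjusted p = 0.15), Psme1 at 0.03 (adjusted p = 0.14) and Psmb8 at 0.02 (adjusted p = 0.70). In that fit Psme2b (0.22) and Psme4 (0.11) were still called higher, where 20.2% of genes were, and 19 of 44 members were called below 0, where 17.2% of genes were. With Ifng taken from T/NK cells alone, the 5 kept their calls (11.7% of genes were higher) and 0 members were lower (7.89% of genes were). The T/NK fit kept the CC007 aPD1 tumor of pool 6, which had fewer than 20 T/NK cells. Its Ifng level in them was 0, against 5.16 to 12.07 in the other tumors, and the fit was not repeated without it. Without the 3 tumors under 500 cells, Psmb8 stood at 0.06 (adjusted p = 0.10) and the other 4 kept their calls. Ifng UMIs per tumor ranged from 0 to 2348, so the level of the smallest tumors is known poorly.

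**Figure D5:**
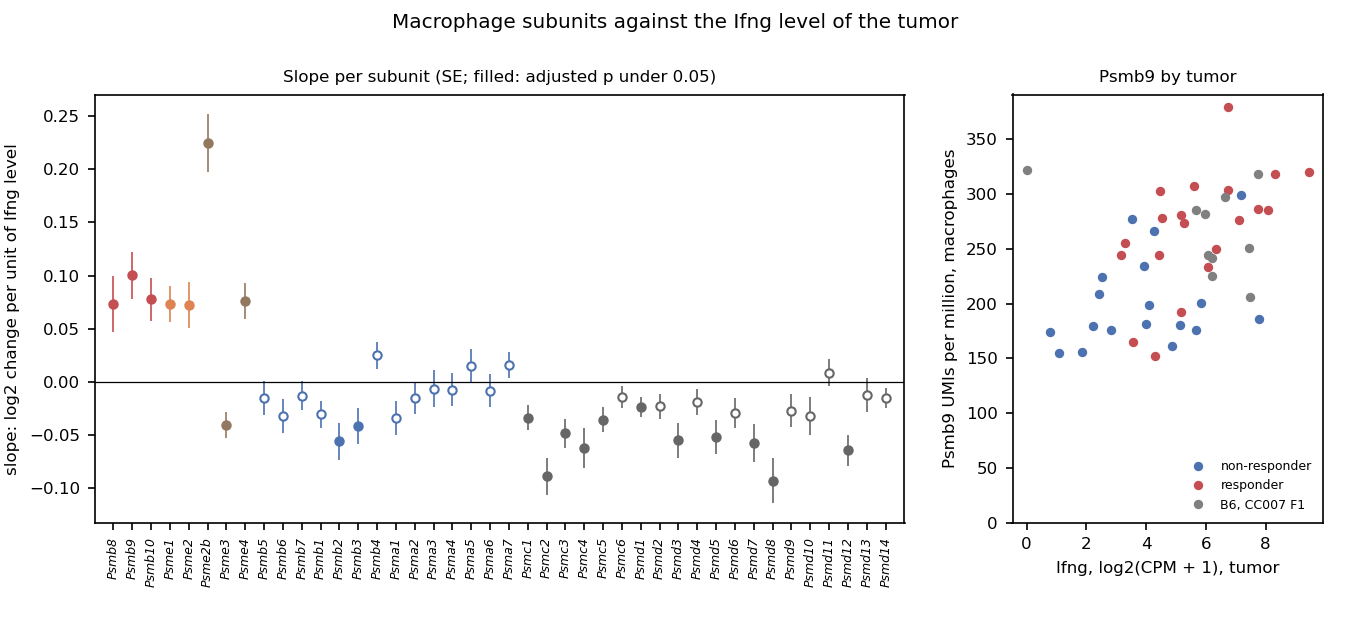
Left, slope of each member in macrophages on the tumor's Ifng level (log2 units per unit of log2(CPM + 1)) with its SE, over 48 tumors, filled where adjusted p is under 0.05; right, Psmb9 CPM in macrophages against the Ifng level, 1 point per tumor, colored by class with the unclassed hosts in grey. Psmb9 has a slope of 0.10 and Psme2b of 0.225, and the 19S ATPases lie below 0.

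In T/NK cells the class difference was not detected. None of 41 members tested was called over both treatments, where 0.928% of 7219 genes were higher and 1.3% lower (2.23% in either direction, and 1047 genes at an unadjusted p under 0.05). None was called within isotype tumors (0.429% of genes) or aPD1 tumors (0.346%) either, and DESeq2 called none. Psmb9 was 186 to 361 CPM in 9 non-responder isotype, 158 to 375 in 9 non-responder aPD1, 235 to 409 in 10 responder isotype and 294 to 379 in 10 responder aPD1 tumors, all overlapping. It stood at 0.20 (95% interval 0.00 to 0.39, adjusted p = 0.33), Psmb8 at -0.03 (-0.31 to 0.24) and Psme1 at 0.01 (-0.18 to 0.20), by edgeR's quasi-likelihood test. Psme2b, Psma8, Psmb11 and Psmc3ip were too low to test.

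In dendritic cells the calls depended on the fit. Without a block none of 42 members was called over both treatments, where 0.718% of 8640 genes were higher and 0.683% lower (1.4% in either direction, and 1049 genes at an unadjusted p under 0.05). None was called within isotype tumors (0.243% of genes) or within aPD1 tumors (0.266% higher and 0.22% lower). Psme1 had a lowest, median and highest level of 571, 863 and 987 CPM in non-responder and of 862, 1035 and 1163 CPM in responder aPD1 tumors. Psmb9 was 281, 400 and 483 CPM in non-responder and 424, 491 and 706 CPM in responder aPD1 tumors. Both overlapped, and 6 of 10 responder tumors were above every non-responder tumor for Psmb9. Over both treatments Psmb8 stood at 0.28 (0.12 to 0.44, adjusted p = 0.061), Psme1 at 0.28 (0.12 to 0.45, adjusted p = 0.069), Psmb9 at 0.28 (0.09 to 0.46, adjusted p = 0.13) and Psme2 at 0.06 (-0.11 to 0.24), by edgeR's quasi-likelihood test. DESeq2 called Psmb8 (adjusted p = 0.026) and Psme1 (adjusted p = 0.036). With the pool as a block, edgeR called Psmb8 (0.23, adjusted p = 0.017) and Psme1 (0.28, adjusted p = 0.015) higher, where 1.77% of genes were, and Psmd8 lower, where 1.5% were, and under aPD1 it called Psme1 (0.35, adjusted p = 0.043), where 1.02% of genes were higher. Whether the class difference itself was larger in macrophages than in these cells was not tested.

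Other genes of the pathway are given for context. Of 11 genes that supply peptides to MHC class I, 5 were higher in macrophages of responder strains over both treatments. Over all genes 4.1% were. The 5 were Tap1 (0.59) and Tap2 (0.40), the peptide transporter, H2-D1 (0.36) and B2m (0.31), the class I chains, and the peptide editor Tapbpl (0.45). Reads of all hosts were aligned to GRCm38. The part of sequence differences between strains in these values, and in those of Psmb8 and Psmb9, was not tested. Of 15 tested genes of proteasome assembly and regulation, among them Pomp and Psmg1, 0 were called over both treatments or under aPD1.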

How the data were processed

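Single-cell 5′ RNA libraries of 12 pools, each of 4 tumors told apart by hashtag antibodies, gave 48 tumors, which are the replicates. The authors deposited UMI counts per gene and cell, made with Cell Ranger against GRCm38 and filtered in Seurat 5.0.1 on mitochondrial and ribosomal shares, with cluster numbers and hashtag calls. Demultiplexing errors and free RNA can carry counts between tumors of 1 pool and between cell types. No doublet caller was run here, and no value was normalized before deposit.

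From these counts, sums per tumor and cell population (at least 20 cells) were tested with edgeR 4.0.16 in R 4.3.3: TMM scaling, filterByExpr, the quasi-likelihood test, and Benjamini-Hochberg adjustment over all genes tested, with 0.05 as threshold. The tumors of 6 strains entered 1 fit with 4 groups of class and treatment. The Ifng slope and the F test over hosts used all 48 tumors. Macrophage sums in the class fit held 412779 to 11778425 UMIs, and Psma8 and Psme2b, at few CPM, are measured less precisely than the other members. The edgeR fits of a class difference, a slope and a strain difference were tested on simulated macrophage counts. These were drawn with the same spread for all genes and without a correlation between tumors of the same pool. For the class difference, strains of the same class were drawn alike, so differences between such strains were not covered. The members and lists were chosen with earlier results of these data known. The 5 inducible and 3 constitutive catalytic members are named in every comparison, as are other members past the threshold, up to the 12 of smallest adjusted p. Labels put tumors of a pool in 1 library, and residuals of tumors of the same pool correlated with a median r of 0.346 (55 pairs, 5917 genes) against -0.0879 between pools (648 pairs), so the pool was used as a block in an alternative fit. With the block, the members called in macrophages over both treatments went from 5 to 3. Other alternatives were DESeq2 1.42.0, scaling by library size, no filter and a filter at 20 CPM, the set of pools (1 to 6 or 7 to 12, on either side of the largest gap in the library identifiers' numbers) as a term, single sets, and leaving out strains, pools, small tumors or clusters. Gene positions are from GENCODE on GRCm38 and promoters from RefSeq (GRCm38.p6). Descriptions used Python 3.11.15 with numpy 2.4.6, pandas 2.3.3 and scipy 1.17.1, and plots matplotlib 3.10.9. A result on a motif and a result on a list of regulators are not reported here.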

Additional observations from a re-analysis of the deposited data

Results flagged for a closer look

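In 32 groups of 9 or 10 macrophage samples (8 catalytic and PA28αβ genes in 4 groups of class and treatment), 2 had a sample further from the rest than Dixon's critical value allows, where chance gives about 1 in 20. Psmb6 was 121 CPM in a CC036 isotype tumor of pool 8, and the next lowest non-responder isotype tumor had 191 CPM. Psmb7 was 50.9 CPM in a CC002 isotype tumor of pool 12, the tumor with 248 cells, and the next lowest responder isotype tumor had 79.4 CPM.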

How the results depend on the processing

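Of 330 recomputed counts and levels, 294 kept their value within 1.5 times or within the spread. Most of those kept were comparisons with 0 members called in the main fit that stayed at 0, so this share says little about the calls. In macrophages the 5 members called over both treatments became 3 without a filter, 3 with the pool as replicate block, 0 in pools 1 to 5, 3 in pools 8 to 12, 0 with counts summed per strain and 0 without clusters 2, 5 and 26. The 5 called in aPD1 tumors became 3 without a filter, 0 in pools 1 to 5 and 0 in pools 8 to 12. They became 3 without the pair of tumors sharing an animal identifier, 0 summed per strain and 0 without those clusters. No share over all genes is given for the fits without a filter or without that pair. Leaving out 1 strain or pool gave 2 to 7 and 3 to 6. Psme1 was not called over both treatments without CC079 (adjusted p = 0.079 by edgeR) or without pool 2. With the block, Psmb10 was not called in aPD1 tumors (0.38, adjusted p = 0.056). In dendritic cells the 0 over both treatments became 2 with DESeq2 (0.749% of genes were higher) and 2 with library-size scaling (0.706%). It became 3 with the block and 2 with the set of pools as a term (1.04%). Leaving out 1 strain gave 0 to 1, with no share over all genes given, and no pool was left out in these cells. Without tumors under 500 cells, a setting chosen after seeing the data, it was 1 (0.694%). Under aPD1 the 0 became 1 with the block. The 22 members with an Ifng slope became 7 with Ifng of T/NK cells alone, and the 14 that differed among hosts 5 with the block. The cause was not tested.

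Directions that reversed were all of values that were not called. Leaving out 1 strain or pool, Psme2 ranged from -0.20 to 0.17 in isotype tumors (0.17 without CC001, 0.11 without CC080, 0.013 without pool 3, 0.046 without pool 4) and from -0.0064 (without CC079) to 0.18 over both treatments, and Psmb10 from -0.0082 (without CC079) to 0.28 in isotype tumors. For aPD1 against isotype in responder strains, Psmb10 ranged from -0.0072 and Psme2 from -0.026, both without CC001, to 0.35 and 0.41. Psmb8 in T/NK cells, where no pool was left out, ranged from -0.24 to 0.23, with 0.076 without CC075 and the highest without CC079. It was 0.011 without a filter and 0.032 with the set of pools. Psme2 was 0.054 in isotype tumors of pools 8 to 12 and -0.013 over both treatments without clusters 2, 5 and 26.

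Over all genes, the 487 higher and 292 lower over both treatments in macrophages became 339 and 528 with library-size scaling, 31 and 11 summed per strain, 91 and 60 without the 3 clusters, 191 and 132 in pools 1 to 5, 199 and 133 in pools 8 to 12 and 263 and 149 with a filter at 20 CPM. The 516 and 249 under aPD1 became 345 and 600 with library-size scaling, 848 and 550 with the block, 730 and 433 with the set of pools, 12 and 5 summed per strain, 48 and 20 without the 3 clusters, 107 and 45 in pools 1 to 5, 51 and 19 in pools 8 to 12, 282 and 162 at 20 CPM and 215 and 83 without pool 2. Leaving out 1 strain or pool also moved the first pair to 293 and 186 without pool 2 and 320 and 195 without pool 9, and the second to 245 and 79 without CC075, 261 and 121 without CC079, 313 and 182 without CC080, 324 and 145 without pool 5, 362 and 150 without pool 9, 347 and 148 without pool 10 and 296 and 136 without pool 11. The 2742 genes with a positive and 2532 with a negative Ifng slope became 1480 and 1001 with Ifng of T/NK cells and 1729 and 1608 with the block, and the 6465 that differed among hosts 1672 with the block. T/NK sums held as few as 80784 UMIs, and the part of depth in the results of that population was not tested.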

Other observations

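Across the 48 tumors, the macrophage genes whose level moved most like the mean of the 5 inducible members were, of 12466 genes, Calhm6 (r = 0.884), Prdx5 (0.867), Gbp6 (0.866), Ly6a (0.854), Ift172 (0.853), Il2rg (0.852), Igtp (0.849), Tapbpl (0.848), Tap1 (0.841) and Ifi47 (0.832). These are Pearson coefficients of log2 CPM over tumors that share libraries in groups of 4 and differ in depth, given as a description. Gbp6, Igtp and Ifi47 are interferon-induced GTPases, and Tap1 and Tapbpl act in peptide loading of MHC class I. Without the 3 tumors under 500 cells the same 10 genes ranged from 0.831 to 0.889.

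Among the members themselves, the 10 pairs of inducible members had r from 0.746 to 0.932 (median 0.839). The 561 pairs of constitutive members ranged from -0.402 to 0.978 (median 0.459). The 170 pairs of an inducible and a constitutive member ranged from -0.320 to 0.864 (median 0.235). All pairs were taken over the same tumors. These include the CC007 aPD1 tumor of pool 6, which had 53 cells and 21.5 CPM of Psmb7 in macrophages. The part of that tumor, and of other small tumors, in these coefficients was not tested.

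Of the genes that supply peptides to MHC class I, 7 of 11 had a higher macrophage level where Ifng was higher by edgeR's quasi-likelihood test, led by Tap1 (slope 0.20), where 22.7% of all genes did. Of 15 genes of proteasome assembly and regulation, Nfe2l2 and Ddi2 were higher and Usp14, Psmg1, Psmg2, Psmg3, Adrm1 and Uchl5 lower, where 20.9% of all genes were lower.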
